A study of Mus musculus with 12 samples.

Results

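The libraries described here are those of the control 3T3-L1 line (labelled NC) before and after adipogenic culture, 6 of the 12 libraries of the series, chosen by their labels alone. Followed in them were the genes with the largest changes, the members of gene lists grouped by function, and the alternative forms of enzymes and regulators. 3T3-L1 is an established mouse line of fibroblast-like preadipocytes. The 3 undifferentiated libraries came from cells in high-glucose medium with 10% serum and antibiotics. The labels give 10% serum for the differentiated libraries too. The 3 differentiated libraries came from the same line after 48 h in medium with dexamethasone (2 µg/ml), the phosphodiesterase inhibitor IBMX (0.5 mM), the PPARγ agonist rosiglitazone (1 µM), triiodothyronine (1 nM), insulin (5 µg/ml) and indomethacin. They were then kept with rosiglitazone, triiodothyronine and insulin alone, a scheme meant to give beige fat cells. The study also sampled a 3T3-L1 line that overexpresses LIGHT, the cytokine encoded by Tnfsf14, at both stages. That line enters here through the low-count filter, the scaling and the shared estimate of spread.

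Adipogenesis in this line follows a known order. Glucocorticoid and raised cAMP switch on early C/EBP factors, these switch on the nuclear receptor PPARγ and C/EBPα, and both then turn on the genes of lipid uptake, storage and release. On the way the cells leave the division cycle, round up as their actin stress fibres dissolve, and rebuild the matrix around them from fibrous to basement membrane type.

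Each control library held between 16334079 and 19686675 expected counts, estimated read counts per gene, over 14906 to 15017 listed genes. Levels are given in CPM, counts scaled by TMM to a common library total, or in FPKM, which also divides by gene length and is the scale used between genes. Library values stand in the order of replicates 1, 2 and 3. The library labelled differentiated control 1 goes against its label: it held 113 counts of Tnfsf14, where the other differentiated controls held 0 and 0 and the undifferentiated controls 0, 1 and 0. It also stood apart in other genes. Among the 11960 genes that averaged 1 CPM or more its median absolute log2 difference from the mean of differentiated 2 and 3 was 0.212, against 0.0941 between those 2 libraries. Counts of calls are therefore given as labelled and again without that library, which is called the repeat. A list's counts in the repeat cover the members tested as labelled, unless another number of members is given. Single genes are given again where the call changed or the fold moved by over 1.5 times. The fit of the repeat also leaves out the library labelled differentiated LIGHT 1, whose Tnfsf14 count contradicts its label too. Nothing in the labels tells whether replicates were grown separately, and a p-value here reflects only how far these libraries vary among themselves, which may be technical. The labels also leave out the day of harvest, so effects of the inducing agents and of time in culture cannot be told apart. In bulk RNA of this kind, fewer cells of a type and less RNA per cell cannot be told apart.

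The labels of the stages were set against marker genes. All 6 adipocyte markers (Adipoq, Cidec, Plin1, Fabp4, Lipe and Pparg) rose, and their summed level went from between 58.8 and 63.0 CPM to 12809, 17410 and 18570 CPM. The hormone-sensitive lipase Lipe, for instance, read 7.50, 9.61 and 9.50 CPM before and 521, 733 and 741 CPM after differentiation. Of 8 fibroblast and preadipocyte markers 4 fell, namely Ly6a (log2 fold change -2.88), Cd34 (-1.86), Thy1 (-1.10) and Dlk1 (-0.43), and none rose. In the repeat 5 fell, with Pdgfrb added (-0.11 as labelled and -0.24 in the repeat). Pdgfra did not pass the test (0.62, and -0.07 in the repeat) and read 281 CPM in the library labelled differentiated 1 against 94.4 and 99.1 CPM in the other differentiated libraries. The summed level of the 8 was 9652 to 11401 CPM before and 16985, 10297 and 10727 CPM after differentiation. Most of each sum was collagen I, and fibroblast markers remained detected in the differentiated libraries.

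Markers of blood, endothelial and epithelial cells were low. The T, B and mast cell markers summed to at most 0.0583 CPM in any library and none reached the low-count filter; Cd3e, Ms4a1, Cpa3 and Ms4a2 were listed in no table and Kit was at 0 in all control libraries. The 8 macrophage markers summed to between 19.4 and 20.03 CPM before and between 8.08 and 8.42 CPM after differentiation, and 2 of the 4 tested, Cd14 (-1.34) and Lyz2 (-3.85, and -5.01 in the repeat), fell. Endothelial markers stayed between 0.498 and 1.10 CPM, although Pecam1 rose by 1.92 in log2 from a mean near the floor of 3 counts. The epithelial markers Krt8 and Krt18 rose, and the summed level of that list went from between 0.115 and 0.506 CPM to 1.68, 11.02 and 7.99 CPM. Muscle markers summed to 9.47 to 10.8 CPM before and 18.2 to 29.5 CPM after, where desmin (Des) rose by 1.61. Of the bone markers Alpl rose and Runx2 fell by 0.75, and of the cartilage markers Sox9 fell by 0.56. The part of such cells in the results below was not tested.

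Most of the transcriptome differed between the stages. In edgeR's quasi-likelihood test, with Benjamini-Hochberg adjustment over all genes, 8307 of 12993 tested genes passed an adjusted p of 0.05, which is 63.9%. Of all tested genes 32.2% rose and 31.7% fell, so the counts of list members below are to be read against these shares. With a condition of at least 2-fold 13.5% rose and 10.3% fell. In the repeat 70.7% passed, 35.8% upward and 34.9% downward, and the 8067 genes called in both fits had the same direction in both. The median log2 fold change was 0.000466 as labelled, and -0.113 when library totals replaced TMM scaling, so small changes are relative to that choice; groups did not overlap for 67.7% of the tested genes.

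The rises were larger than the falls. A log2 change of at least 3 was found for 430 genes that rose and 182 that fell, and one of at least 5 for 222 and 41. Genes that rose at least 2-fold held 5.94%, 5.86% and 5.92% of the CPM before and 19.4%, 22.1% and 22.5% after differentiation. Genes that fell by as much went from 10.1%, 10.1% and 10.0% to 3.69%, 3.11% and 3.11%.

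**Figure D1:**
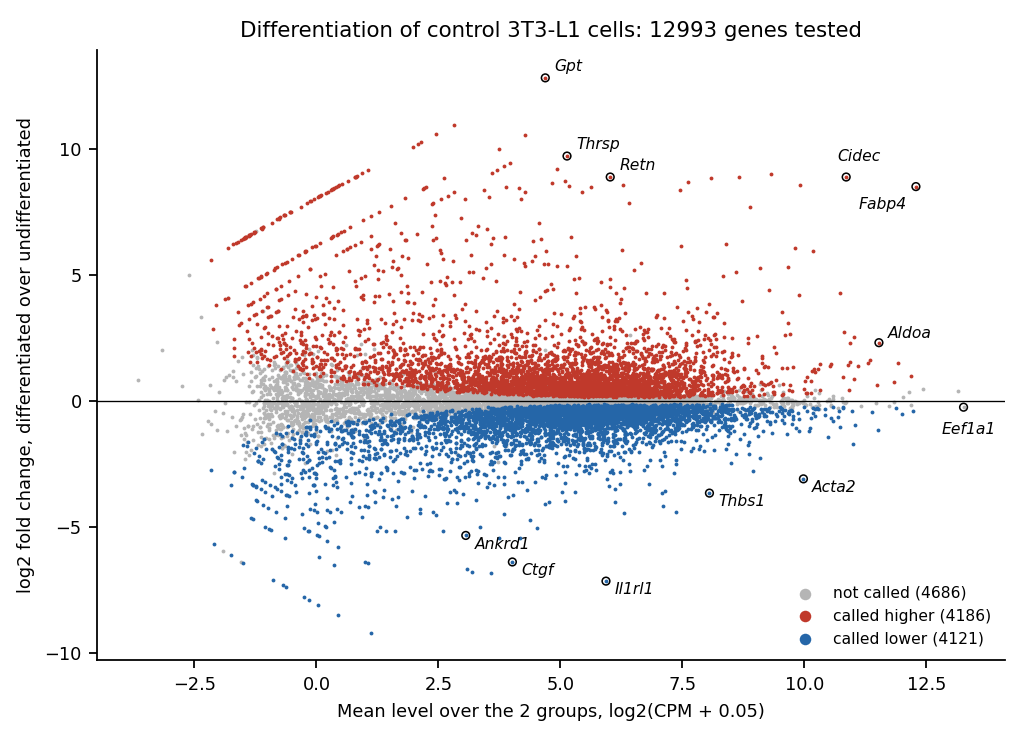
Log2 fold change of each of the 12993 tested genes (y axis) against its mean level over both groups, log2(CPM + 0.05) (x axis); red and blue points are the 4186 genes called higher and the 4121 called lower after differentiation, grey points passed no test. The rises reach further than the falls, and Fabp4 and Cidec lie at the far right among the most abundant genes; the lines of points at the upper left are genes with 0 or very few counts in undifferentiated cells.

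The transcription factors of adipogenesis rose in 27 of 40 tested members and fell in 8 (28 and 10 in the repeat), with a median log2 fold change of 0.74. Cebpa, C/EBPα, went from 4.85, 3.88 and 4.43 CPM to 186, 196 and 206 CPM. Klf15, a Krüppel-like factor induced by glucocorticoid, went from 0.115, 0.225 and 0.175 CPM to 9.39, 12.5 and 11.8 CPM. The stages did not overlap for either gene, as for 67.7% of all tested genes, and their log2 fold changes were 5.48 (SE 0.09) and 5.97 (SE 0.28). Nfatc4 rose by 1.56. The other C/EBP factors moved less: Cebpg rose by 1.01, Cebpb by 0.43 and Cebpd by 0.41. The call of Cebpb was lost under library totals (0.31) and without the library differentiated 2 (0.30), differentiated 3 (0.39), undifferentiated 1 (0.39) or undifferentiated 2 (0.40). The factors that fell included Klf4 (-1.36), Gata2 (-1.69), a brake on adipogenesis, Foxc2 (-1.28) and Ebf3 (-1.14). Inhibitors of differentiation also fell: all 4 Id genes did, from -0.46 for Id1 to -1.80 for Id2.

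Nuclear receptors rose in 17 of 28 tested members and fell in 7 (18 and 7 in the repeat). The smallest p was that of Nr1h3, the oxysterol receptor LXRα, which went from 5.02, 4.44 and 3.26 CPM to 98.5, 117 and 115 CPM. Pparg read 12.8, 11.7 and 12.6 CPM before and 89.3, 124 and 127 CPM after. Their log2 fold changes were 4.70 and 3.20 (4.79 and 3.37 in the repeat). The thyroid hormone receptor Thra rose by 1.62 and Rxra, the shared partner of these receptors, by 1.11. The vitamin D receptor Vdr fell by 1.77, from 41.7, 44.3 and 42.4 CPM to 13.4, 11.4 and 12.7 CPM, Nr1d2 by 0.98, Rarg by 0.82 and Nr2f1 by 0.70.

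Genes known to respond to glucocorticoid rose in 18 of 20 members, 11 of them at least 2-fold, with a median of 1.20, and the counts were the same in the repeat; 3 of the 20 had under 10 counts in every undifferentiated library. Angptl4, an inhibitor of lipoprotein lipase, rose by 5.10 to 610, 806 and 842 CPM, Glul, glutamine synthetase, by 3.29 and the metallothionein Mt1 by 2.31. The kinase Sgk1 alone fell. It read 103, 102 and 105 CPM before and 89.8, 37.7 and 38.1 CPM after differentiation, so the library labelled differentiated 1 lay near the undifferentiated level. Its log2 fold change was -0.91 as labelled and -1.42 in the repeat, and the call was lost without differentiated 2 or 3 (both -0.68) or any 1 undifferentiated library (-0.91, -0.91 and -0.90).

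Clock genes rose in 10 of 20 members (12 in the repeat), among them Per1 (1.75), Rora (1.76), Cry2 (1.22) and Nr1d1 (0.96), and Nr1d2 was the 1 that fell. Immediate early genes rose in 13 of 23 (15 in the repeat) and fell in 4 (5 in the repeat). Egr1 read 33.3, 30.8 and 31.9 CPM before and 241, 233 and 233 CPM after, a log2 fold change of 2.88, and Fos rose by 3.12, Zfp36 by 2.37 and Ier2 by 1.76. Jun (-0.52), Fosl2 (-0.50), Ier5 (-1.42) and Nr4a2 (-0.99) fell.

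Of the 47 functional lists, those of fat storage and fat uptake had the highest medians. Triglyceride synthesis and lipid droplet genes rose in 26 of 30 tested members, and 24 rose at least 2-fold; none fell as labelled and 1 fell in the repeat. The median was 3.18. Of those 30, 3 had under 10 counts in every undifferentiated library. Pnpla2, the triglyceride lipase ATGL, went from 26.7, 25.3 and 28.4 CPM to 1708, 1740 and 1867 CPM. Agpat9, an acyltransferase of glycerolipid synthesis, rose by 3.70 and Dgat2, which makes triglyceride, by 4.03. Fatty acid uptake and activation genes rose in 14 of 17 members, in both fits, with a median of 2.32. Cd36, the fatty acid translocase, went from 1.56, 1.57 and 1.98 CPM to 897, 770 and 753 CPM, and the lipoprotein lipase Lpl from 185, 172 and 151 CPM to 3296, 3234 and 3207 CPM. The acyl-CoA synthetase Acsl5 was the only member to fall, by 1.24.

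Genes of peroxisomes, which shorten very long fatty acids and make ether lipids, rose alongside. Peroxisomal lipid enzymes rose in 24 of 27 members and fell in 2, in both fits, with a median of 1.81. Scp2, a sterol and fatty acyl carrier and thiolase, read 69.6, 69.6 and 68.9 CPM before and 390, 445 and 446 CPM after, a log2 fold change of 2.62. Pxmp4 rose by 3.32, Mlycd by 2.38 and Gnpat, which starts ether lipid synthesis, by 1.81. The 2 that fell, Agps (-0.35) and Far1 (-0.43), act in the same ether lipid pathway; they and other members outside the naming rule that are given below to complete small counts were chosen after their values were seen. The peroxins, which build the organelle, rose in 14 of 16 members (15 in the repeat), and none fell. The division factor Pex11a rose by 3.27 from 5.48, 7.59 and 8.39 CPM to 63.8, 69.7 and 73.8 CPM, and the import receptor Pex5 by 1.42. Among ABC transporters Abcd2, which carries fatty acyl-CoA into peroxisomes, had the smallest p of those that rose, with 2.83, 3.60 and 1.87 CPM before and 67.5, 90.3 and 84.2 CPM after.

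Other families of mitochondrial genes rose too. Complex I subunits and factors rose in 42 of 45 members (43 in the repeat) with a median of 1.02, mitochondrial ribosomal proteins in 59 of 77 (69 in the repeat) with a median of 0.55, and none of either family fell. Examples are Ndufv3 (2.43), Ndufb6 (1.26), Mrpl12 (1.36) and Mrpl51 (1.01). All 10 acyl-CoA dehydrogenases rose in both fits. Some of this family open each round of fatty acid oxidation. Acad8 and Acadsb are also in the branched-chain amino acid list below, so these are not separate observations. Acadm read 42.5, 40.7 and 39.5 CPM before and 423, 487 and 492 CPM after. Genes of mitochondrial protein import rose in 17 of 23 members (18 in the repeat) and fell in 1, Tomm34 (-0.33). Mitochondrial biogenesis and dynamics genes rose in 20 of 31 (25 in the repeat) and fell in 3. Bnip3, a mitophagy receptor, went from 51.1, 52.0 and 47.5 CPM to 455, 961 and 956 CPM, Pink1 rose by 1.72 and Esrra by 1.35, while Pprc1 fell by 1.26.

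The carriers of the mitochondrial inner membrane went both ways, with 20 of 39 higher and 9 lower (20 and 8 in the repeat). The dicarboxylate carrier Slc25a10 went from 47.0, 46.5 and 53.4 CPM to 482, 553 and 584 CPM. The citrate carrier Slc25a1, which exports citrate for lipid synthesis, rose by 2.47. Slc25a24 (-1.51) and the mitochondrial iron carrier Slc25a37 (-1.67) fell.

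Breakdown of branched-chain amino acids is a known activity of mature fat cells. Of its 25 genes 23 rose and 1 fell, in both fits, and 20 rose at least 2-fold, with a median of 1.45. Bckdha and Bckdhb, the E1 subunits of the branched-chain ketoacid dehydrogenase, rose by 2.12 and 2.77, and Hibadh, of the valine route, by 2.23. The first step is done by either of a pair of aminotransferases, and these moved in opposite directions. Bcat2, the mitochondrial form, went from 23.4 ± 1.505 to 223 ± 8.50 FPKM (SD, n = 3), and Bcat1, the cytosolic form, from 29.4 ± 0.408 to 5.34 ± 1.10 FPKM. The forms were at like levels per length before differentiation and far apart after it. On the log2 scale the changes were 3.38 (SE 0.08) and -2.34 (SE 0.18).

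Glycolysis genes rose in 18 of 23 members, 13 of them at least 2-fold, and 1 fell (21 and 1 in the repeat). Aldoa, aldolase A, went from 928, 981 and 1076 CPM to 3746, 5418 and 5578 CPM. Pfkfb3, which makes the activator of phosphofructokinase, rose by 1.83. The library labelled differentiated 1 was lower than both other differentiated libraries for 22 of these 23 genes, with a median log2 difference of -0.60, so the rises are larger in the repeat: 2.49 against 2.30 for Aldoa and 2.59 against 2.39 for Hk2. Muscle-type enolase Eno3 fell, from 109, 110 and 114 CPM to 23.3, 27.1 and 25.2 CPM.

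Glycogen genes rose in 16 of 19 members and fell in 2, Pgm1 (-0.62) and Phka1 (-0.41), with a median of 1.89 (15 and 3 in the repeat). Of the 19, 3 had under 10 counts in every undifferentiated library. Gys1, glycogen synthase, read 90.7, 97.4 and 93.7 CPM before and 316, 508 and 530 CPM after. The subunits that bring phosphatase to glycogen rose, Ppp1r3d by 3.46 and Ppp1r3c by 3.30. The pentose phosphate and NADPH list rose in 9 of 14 and fell in 3, in both fits. Rpia (1.99), Idh1 (1.86), Taldo1 (1.76) and malic enzyme Me1 (1.14) rose. Me2 (-0.28), Me3 (-3.03, and -5.39 in the repeat) and Nnt, the mitochondrial transhydrogenase, fell; Nnt read 165, 161 and 168 CPM before and 93.8, 72.3 and 71.8 CPM after.

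**Figure D2:**
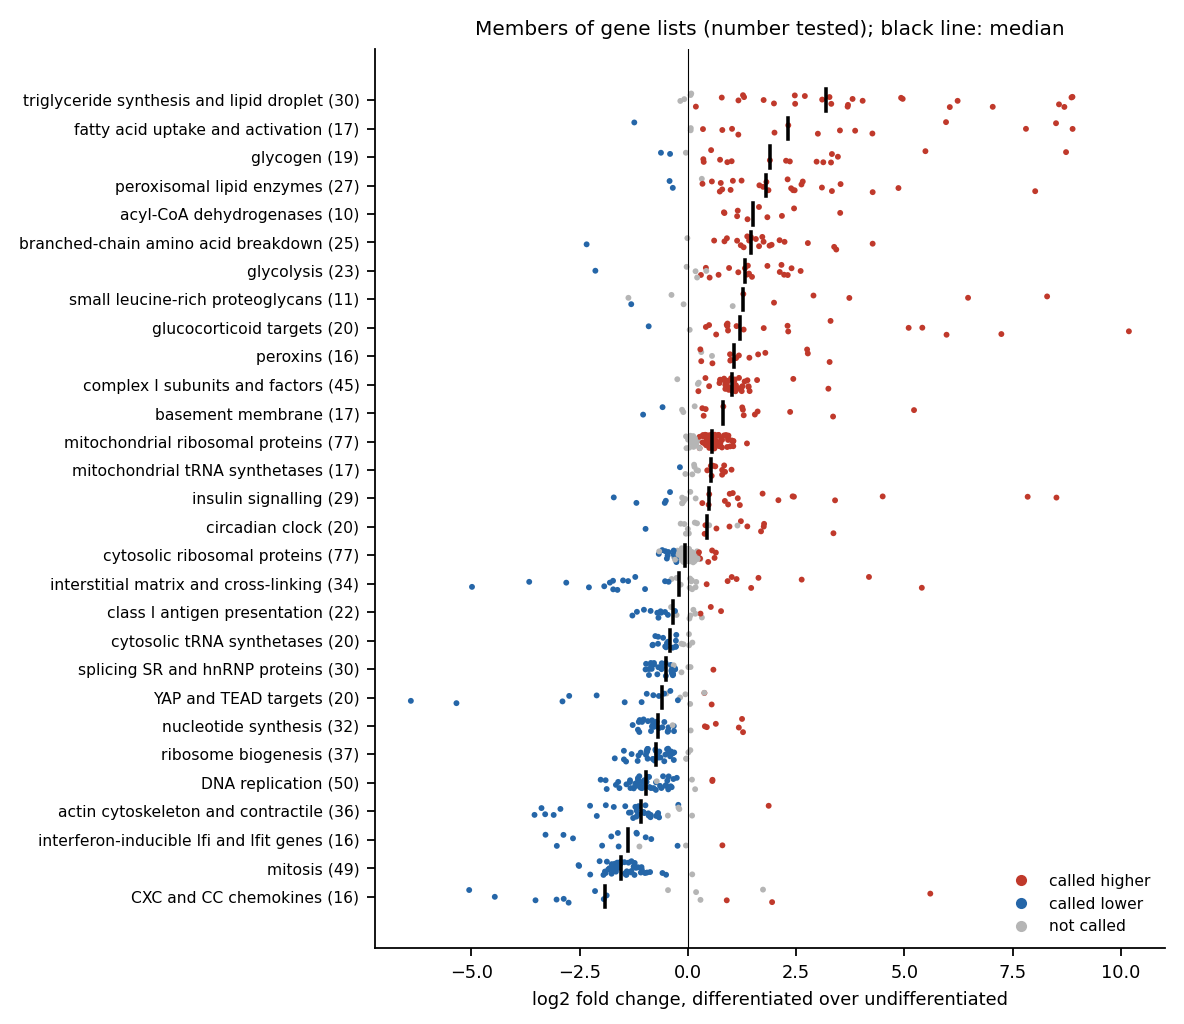
Log2 fold change of each tested member (x axis, 1 point per gene) of 29 gene lists and families ordered by median, with the number tested in brackets; red points were called higher, blue points lower and grey points neither, and the black line is the median. Lipid storage, fatty acid and glycogen genes lie to the right, and mitosis, actin and chemokine genes to the left.

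In several sets of alternative forms 1 member changed far more than the others, or members moved in opposite directions. Among glucose transporters, the insulin-regulated Slc2a4 (GLUT4) went from 0.0733 ± 0.029 to 25.9 ± 6.67 FPKM. The ubiquitous Slc2a1 (GLUT1) went from 46.3 ± 3.49 to 129 ± 13.7 FPKM and remained the higher of the pair per length. Hexokinase Hk2 went from 6.46 ± 0.343 to 31.2 ± 6.48 FPKM and Hk1 from 45.2 ± 2.57 to 55.4 ± 7.59 FPKM. Lactate dehydrogenase Ldha rose by 1.38 and Ldhb, the heart type, by 2.60, yet Ldha remained the more abundant at 2003 ± 435 FPKM against 290.1 ± 4.48 FPKM. Of the kinases that shut pyruvate dehydrogenase, Pdk2 (3.06), Pdk1 (2.58) and Pdk4 (1.12) rose, and Pdk3, the most abundant before differentiation at 37.3 ± 0.831 FPKM, did not pass the test.

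Several sets of forms that handle fatty acids were as uneven. In other sets the tested members rose together, such as the diacylglycerol acyltransferases (2 of 2) and the acetyl-CoA carboxylases (2 of 2). Acsl1 went from 10.2 ± 0.261 to 583 ± 13.96 FPKM. By contrast Acsl3 rose by 0.35, a call lost under library totals (0.23) and without differentiated 2 (0.29), differentiated 3 (0.33) or undifferentiated 3 (0.28). Acsl4 did not pass the test (0.06) and Acsl5 fell by 1.24. Before differentiation Acsl5 was the most abundant of the 4 tested and Acsl1 the least, and after it Acsl1 was the most and Acsl5 the least abundant. The droplet coats Plin1 (8.86), Plin4 (4.96) and Plin2 (3.10) rose, while Plin3, at 69.5 ± 2.78 and 66.6 ± 3.77 FPKM, did not pass the test. Lipin 1 (Lpin1), a phosphatidate phosphatase, rose by 3.80, and Lpin2 (-0.18) and Lpin3 (0.08) did not pass. Scd1, a stearoyl-CoA desaturase, rose from 21.8 ± 1.28 to 364.0 ± 92.0 FPKM and reached the level of Scd2, which went from 157 ± 14.6 to 397 ± 51.7 FPKM. Carnitine palmitoyltransferase Cpt1b rose by 2.10 from a low level, and Cpt1a (-0.38) and Cpt1c (-0.85) fell.

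Some sets of regulators showed the same kind of exchange. The insulin receptor Insr rose by 0.96 and the IGF1 receptor Igf1r fell by 1.19, from 4.57 ± 0.170 to 1.77 ± 0.550 FPKM. The D-type cyclin Ccnd1 went from 174 ± 4.36 to 29.2 ± 4.50 FPKM. Ccnd2 did not pass the test (0.03), and Ccnd3 rose by 0.22 and stood highest of the 3 after differentiation, at 157 ± 10.8 FPKM. The call of Ccnd3 was lost in the fit of the 6 control libraries alone (0.22), under library totals (0.10) and without differentiated 2 (0.19), differentiated 3 (0.21), undifferentiated 1 (0.17) or undifferentiated 2 (0.21). The maintenance DNA methyltransferase Dnmt1 fell by 1.52 and the de novo enzyme Dnmt3a rose by 1.71. The integrin chains Itga5, a fibronectin receptor, and Itga6, a laminin receptor, changed by -0.85 and 1.73, and Itga7, another laminin receptor, by 5.92. Alanine transaminase Gpt, with 0 counts in all undifferentiated libraries, stood at 29.7 ± 7.11 FPKM after differentiation. Its mitochondrial counterpart Gpt2 read 43.8 ± 1.85 and 38.7 ± 8.01 FPKM; its log2 fold change of -0.06 did not pass as labelled, and in the repeat it was 0.14 with an adjusted p of 0.0322 in edgeR's quasi-likelihood test.

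**Figure D3:**
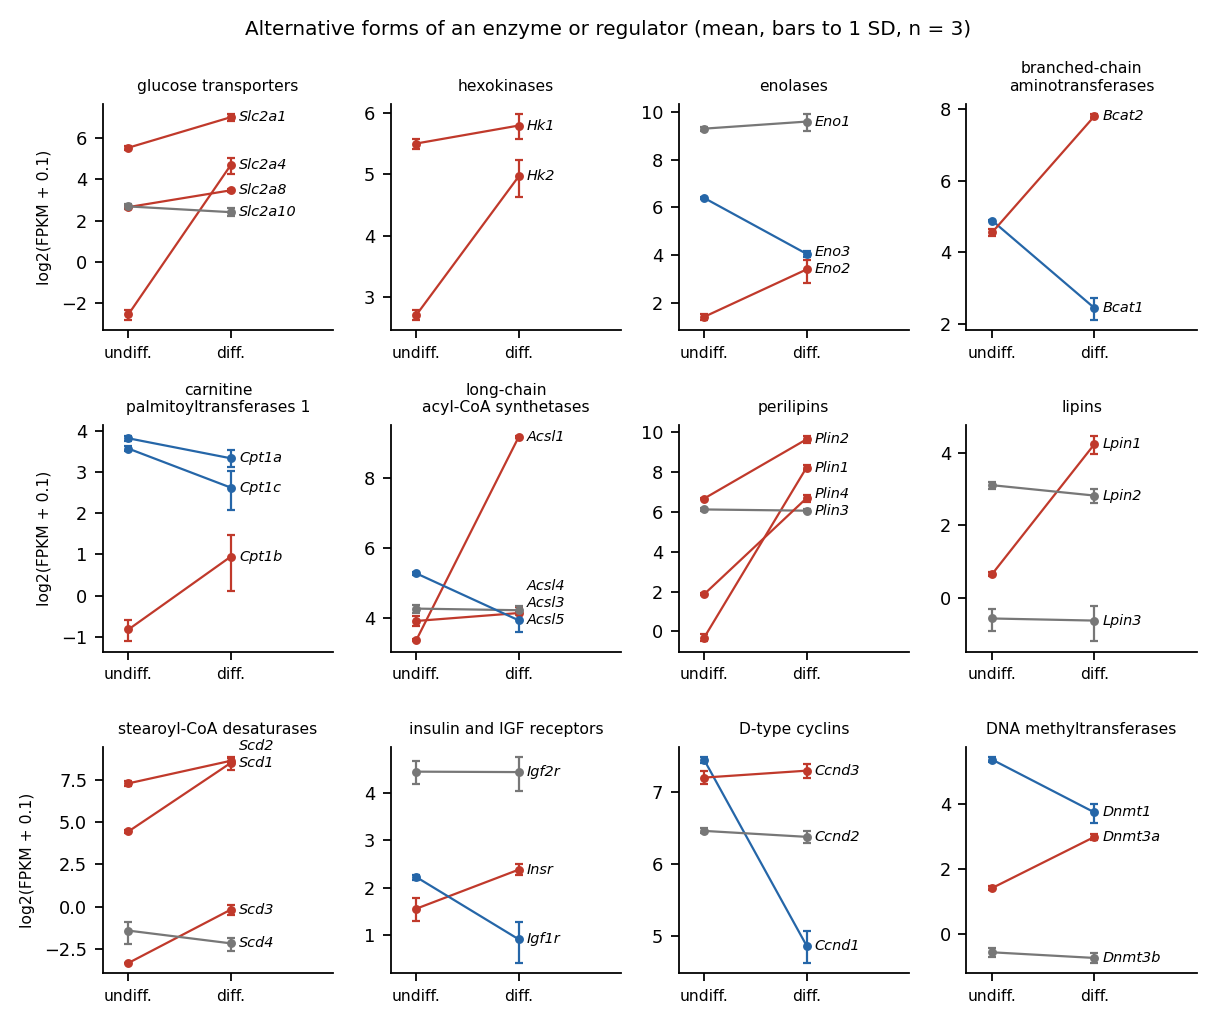
Mean FPKM of the alternative forms of 12 enzymes and regulators before and after differentiation, on a log2(FPKM + 0.1) axis with bars of 1 SD (n = 3); lines in red rose, lines in blue fell and lines in grey did not pass in edgeR's test on counts. The lines cross for Bcat1 and Bcat2, for Acsl1 and Acsl5 and for Insr and Igf1r.

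Beside the 4 largest rises (Gpt, Ffar2, Slc13a4 and Timp4), the next 12 that met the level and separation conditions hold several receptors and hormones. Fam107a, an actin-associated stress protein, had 0 counts in undifferentiated cells and 7.59, 8.48 and 8.85 CPM after, at least 145-fold higher than 3 counts over the group. Hif3a, a hypoxia-inducible factor, was at least 136-fold higher by the same measure. Lgals12, a galectin of lipid droplets, gave a ratio of 1401 (95% counting interval 251 to 55388, counting error only). Hcar2 and Hcar1, receptors for ketone bodies and for lactate that restrain lipolysis, gave ratios of 762 (211 to 6298) and 629.6 (174 to 5204). All 3 differentiated libraries lay above all undifferentiated ones for each of these genes, as the naming rule required.

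Ghrh, the hypothalamic hormone that releases growth hormone, was among them. It read 0.0577, 0 and 0.0583 CPM before and 7.21, 48.6 and 37.8 CPM after differentiation. The ratio of the summed counts was 827 (229 to 6839), and the library labelled differentiated 1 held a fraction of the level of the other 2. The lipogenic regulator Thrsp went to 81.2, 62.4 and 66.8 CPM, the hormone resistin (Retn) from 0.289, 0.169 and 0.350 CPM to 165, 107 and 116 CPM, and the droplet fusion protein Cidec from 8.48, 8.09 and 6.99 CPM to 3654, 3577 and 3876 CPM. Sult1a1, a phenol sulfotransferase, gave a ratio of 679 (188 to 5614).

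The falls after the first 4 (Il1rl1, Il18rap, Siglecg and Itgb7) were led by Ctgf, a matricellular growth factor. It read 33.3, 31.7 and 30.6 CPM before and 0.311, 0.242 and 0.540 CPM after differentiation, a log2 fold change of -6.40 (SE 0.20). The protease inhibitor Slpi fell by 5.45, from 38.3, 34.4 and 33.3 CPM to 1.06, 0.545 and 0.810 CPM. Fgd3 (-5.45), the muscle ankyrin repeat protein Ankrd1 (-5.35), cardiac troponin Tnnt2 (-5.01), the zinc finger protein Bnc1 (-4.54, and -3.96 in the repeat) and the collagen Col8a1 (-4.51) also fell. The interferon-induced genes Tgtp1 (-5.18, and -5.80 in the repeat) and Oas3 (-4.60) and the neutrophil chemokine Cxcl5 (-5.05) were in the same group, with U90926 (-5.16). Timp3, an inhibitor of metalloproteinases, read 42.1, 39.4 and 38.5 CPM before and 0.311, 2.00 and 2.11 CPM after, so that the library labelled differentiated 1 was the lowest; its log2 fold change was -4.74 as labelled and -4.26 in the repeat.

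**Figure D4:**
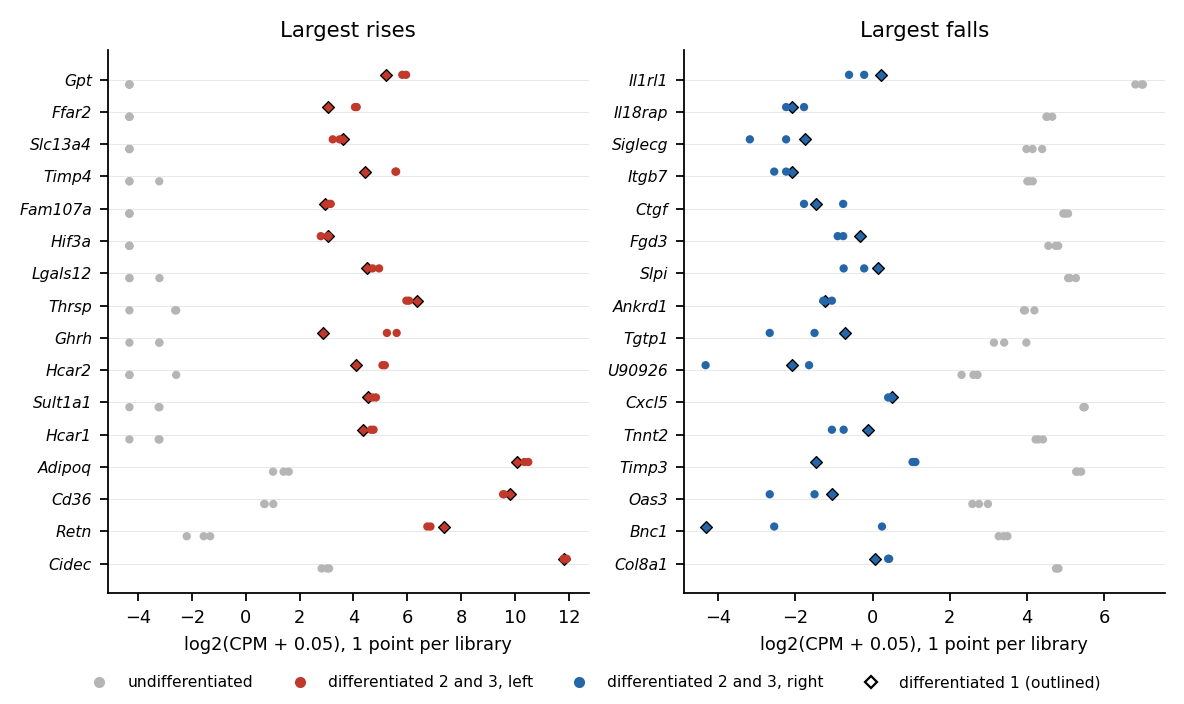
Level in each control library, log2(CPM + 0.05), of the 16 largest rises (left) and 16 largest falls (right); grey points are undifferentiated libraries, coloured points differentiated 2 and 3, and outlined diamonds the library labelled differentiated 1. No gene overlaps between the stages, and the diamond stands apart from the other differentiated points for Ghrh and Timp3.

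Some named genes were found at 1 stage alone. There were 34 with 0 counts in all undifferentiated libraries and at least 10 in each differentiated one. Gpt summed to 2661 counts over the differentiated libraries, Ffar2 to 728 and the liver-type glycogen synthase Gys2 to 158. Several of them encode receptors: the melanocortin receptors Mc2r (189 counts) and Mc5r (113), the adenosine receptor Adora1 (117), the thyrotropin receptor Tshr (59), the endosomal sensor Tlr8 (169) and Il2ra (43). Transferrin (Trf, 102) and the apolipoprotein Apoc3 (54) were others. The reverse held for 5 genes: Atp6v0a4, a subunit of the proton pump (137 counts in undifferentiated libraries), the actin bundler Lcp1 (89), Glipr1 (83), Dynap (63) and the neuropeptide Vip (51). When only differentiated 2 and 3 had to be at 0, it held for 10 genes. The 34 were not counted again in this way. The genes given from among the 34 were picked after these values were seen, and genes not given here had more counts than Gys2, such as Slc13a4 (557).

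Receptors for metabolites and lipids rose in 17 of 26 tested members and fell in 7, in both fits, with a median of 1.63. Of the 26, 9 had under 10 counts in every undifferentiated library, so a fall of these could hardly be tested. S1pr3, a receptor of sphingosine 1-phosphate, rose by 1.17, whereas S1pr1 fell by 2.20, from 13.1, 15.3 and 15.6 CPM to 4.91, 2.54 and 2.21 CPM. The lysophosphatidate receptors Lpar1 (-1.59) and Lpar2 (-1.44) fell, as did the prostaglandin receptor Ptger4 (-2.47, and -3.58 in the repeat). Of 24 genes of adrenergic and cAMP signalling 8 rose and 9 fell (10 and 10 in the repeat), near the 32.2% and 31.7% of all tested genes. Pde3b, the phosphodiesterase through which insulin restrains lipolysis, went from 22.9, 20.8 and 22.03 CPM to 121, 116 and 114 CPM, and Adcy5 rose by 4.86. Pde4b fell by 1.80. Among the regulatory subunits of protein kinase A, Prkar2b rose by 0.98 and Prkar2a and Prkar1a fell by 0.55 and 0.31.

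Insulin signalling genes rose in 17 of 29 members and fell in 5 (18 and 5 in the repeat). Sort1, which sorts GLUT4 vesicles, went from 5.89, 5.39 and 5.07 CPM to 141, 111 and 118 CPM. Pik3r1 (2.09) rose, as did the receptor substrates Irs2 (2.45) and Irs1 (1.15). The adaptor Grb14, which blocks the receptor, fell by 1.71 and Akt1 by 0.54. Caveola genes, whose pits are dense on fat cells, rose in 5 of 7 members, in both fits, among them Sdpr (1.78), Ehd2 (1.51) and Prkcdbp (1.17), and Pacsin2 fell by 0.32.

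Hormones and other secreted proteins of fat rose in 19 of 33 tested members and fell in 8 (21 and 11 in the repeat). Agt, angiotensinogen, read 4.56, 4.72 and 4.31 CPM before and 944, 949 and 941 CPM after, a log2 fold change of 7.70 (SE 0.15). Osteopontin, Spp1, went the other way, from 885, 861 and 842 CPM to 88.7, 153 and 131 CPM. Edn1, endothelin 1, fell from 2.42, 2.14 and 2.74 CPM to 1 count over the differentiated group, a ratio of 124 (21.9 to 4942); that count was in the library labelled differentiated 1. The pentraxin Ptx3 fell by 2.36. Of 12 complement genes 4 rose and 2 fell (5 and 5 in the repeat). Cfd, adipsin, went from 0.115, 0.169 and 0.175 CPM to 46.5, 71.7 and 85.3 CPM and Clu, clusterin, rose by 2.15. C3 rose from 65.5, 51.3 and 51.9 CPM to 1782, 862 and 912 CPM, with the highest value in the library labelled differentiated 1. C3ar1 (-4.35, and -5.60 in the repeat) and Masp1 (-2.78) fell.

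The collagens went in both directions, with 15 of 27 tested up and 7 down (15 and 8 in the repeat) and a median of 1.25. The chains of collagen VI rose together, Col6a1 by 2.29, Col6a2 by 2.74 and Col6a3 by 2.54, the last from 712, 559 and 557 CPM to 3347, 3602 and 3693 CPM. Col3a1 rose by 1.62. Col5a2 (-0.78), Col12a1 (-1.65), Col7a1 (-1.05) and Col8a1 fell. Basement membrane genes rose in 12 of 17 members and fell in 2, Agrn (-0.59) and Lama5 (-1.04), with 12 and 3 in the repeat. The 12 include the collagen chains Col4a1, Col4a2, Col15a1 and Col18a1, so these rises and those of the collagens are not separate observations. The call of Lama5 was lost in the repeat (-1.004) and without differentiated 1 (-1.01), differentiated 2 (-0.85), undifferentiated 2 (-0.84) or undifferentiated 3 (-0.96). It was also lost with DESeq2 (-1.04), in the fit of the 6 control libraries alone (-1.03) and without the low-count filter (-1.02). Col4a1 read 1107, 907 and 985 CPM before and 3204, 2731 and 2814 CPM after, Lama4 rose by 1.29 and Sparcl1 by 2.36. Interstitial matrix and cross-linking genes, a list that holds no collagen chain, rose in 9 of 34 and fell in 15 (12 and 19 in the repeat). The cross-linking oxidases Lox (-0.99) and Loxl4 (-2.81), Fbln5 (-1.73) and the hyaluronan receptor Cd44 (-1.63) fell, while Postn, periostin, rose by 2.63 and elastin, Eln, by 5.40 from at most 0.233 CPM.

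Small leucine-rich proteoglycans rose in 6 of 11 tested members and fell in 1 (7 and 3 in the repeat). Their size depended on 1 library. Lum, lumican, read 0.289, 0.393 and 0.117 CPM before and 166, 47.7 and 45.4 CPM after differentiation, and Dcn, decorin, 27.4, 22.9 and 20.6 CPM before and 595, 170 and 174 CPM after. The library labelled differentiated 1 was highest for both, and for 10 of the 11 tested members it lay above both other differentiated libraries. The log2 fold change of Dcn was 3.73 as labelled and 2.89 in the repeat, and that of Lum 8.29 and 7.43. Aspn, asporin, at 284, 276 and 229 CPM after differentiation, and Prelp showed no such gap and rose by 2.90 and 1.99. Podnl1 fell by 1.31.

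Genes of the actin cytoskeleton and contraction fell in 31 of 36 members (32 in the repeat), 20 of them at least 2-fold, and the median was -1.09. Actg2, smooth muscle γ-actin, read 33.8, 35.0 and 40.9 CPM before and 3.67, 2.18 and 3.51 CPM after, and Tagln, transgelin, 200, 197 and 213 CPM before and 23.9, 16.6 and 21.5 CPM after. The focal adhesion protein Tes fell by 3.38 and Actn1, α-actinin, by 1.90. Only Mylk, the myosin light chain kinase, rose, from 25.9, 27.8 and 23.3 CPM to 117, 80.3 and 82.8 CPM. YAP and TEAD factors, which read tension in the cytoskeleton, were listed together with their targets. Of these 20 genes 13 fell, the factors Tead1, Tead2 and Tead3 among them, and 2 rose, Amotl1 (0.55) and the YAP relative TAZ, encoded by Wwtr1 (0.38), with the same counts in the repeat. Beside Ctgf and Ankrd1, Ajuba fell by 2.74 and the receptor kinase Axl by 2.11, from 656, 605 and 633 CPM to 182, 126 and 130 CPM. Members of this list are also in the growth factor list, in the list of TGF-β and BMP genes or among the largest falls, so these are not separate observations.

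Of 18 integrins 7 rose and 6 fell in both fits, near the 32.2% and 31.7% of all tested genes. Itgav fell by 1.43, Itgb5 by 0.94 and Itga3 by 3.35, from 26.8, 22.3 and 19.1 CPM to 1.62, 1.94 and 3.08 CPM. Itgb3 rose by 0.86. Cadherins fell in 6 of 8 (7 in the repeat), and Cdh13, a receptor of adiponectin, rose by 0.68, with 151 CPM in the library labelled differentiated 1 against 88.4 and 84.7 CPM in the others.

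All but 1 of 49 mitosis genes fell in both fits; Fzr1, an activator of the anaphase-promoting complex, did not pass as labelled (0.10) and rose by 0.16 in the repeat. The median was -1.55. Anln, anillin of the cleavage furrow, went from 279, 288 and 282 CPM to 49.0, 50.5 and 49.0 CPM, and Ndc80, of the kinetochore, from 62.9, 67.9 and 59.6 CPM to 13.5, 13.1 and 13.2 CPM. For neither gene did the library labelled differentiated 1 stand apart. DNA replication genes fell in 45 of 50 (46 in the repeat), with a median of -0.97, and Rpa3 (0.56) and Orc5 (0.57) rose. Top2a (-1.33), Dut (-1.17), Pola2 (-1.11) and Rpa1 (-1.01) had the smallest p. Cyclins, their kinases, inhibitors and E2F factors fell in 25 of 36 and rose in 5, in both fits. The 5 were the inhibitors Cdkn2c (1.18) and Cdkn1a (0.56), the pocket proteins Rb1 (1.62) and Rbl2 (0.35; 0.24 and not called under library totals), and Ccnd3. Mybl2, part of the complex that drives G2 genes, fell by 1.496.

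Promoters of these genes are known for a few short elements, and some are printed here because the mitosis and replication genes moved together. In the RefSeq promoter table of build GRCm38.p6, the 250 bases before the start were searched on both strands for the CCAAT box (CCAAT), the CHR element (TTTGAA or TTCGAA) and the E2F site (TTTGGCGC, TTTCCCGC or TTTCGCGC). CCAAT was found in 34 of 48 promoters of the mitosis genes (70.8%), against 33.8% of all 32851 promoters and 36.0% of those of tested genes. The CHR element was in 17 of the 48 (35.4%), against 17.1% and 12.3%. Of 49 promoters of the replication genes, 26 held CCAAT (53.1%) and 8 the CHR element (16.3%). The E2F site was in 2 of the 48 (4.17%) and in 9 of 49 promoters of the replication genes (18.4%), against 1.53% and 2.91%. Promoters were found for 43 of 49 mitosis and 41 of 50 replication genes, and genes with several starts count more than once. The matches describe letters and are not shown to be bound. Below, capitals mark CCAAT, which reads as ATTGG on the other strand, in Ect2, a driver of cytokinesis, and Bub1, a spindle checkpoint kinase, and the E2F letters in Mcm5 and Mcm7, subunits of the replicative helicase. Each runs from just before the first match to the start, at chr3:27153879-27153994 (minus strand), chr2:127831860-127831947 (minus), chr8:75109336-75109508 (plus) and chr5:138171884-138172068 (minus). They were chosen after their values were seen, as members with small p that hold the letters.
Ect2: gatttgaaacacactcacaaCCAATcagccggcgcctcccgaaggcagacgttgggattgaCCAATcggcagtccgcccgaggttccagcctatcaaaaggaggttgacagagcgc
Bub1: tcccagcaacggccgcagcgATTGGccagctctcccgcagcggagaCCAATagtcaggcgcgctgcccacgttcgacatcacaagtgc
Mcm5: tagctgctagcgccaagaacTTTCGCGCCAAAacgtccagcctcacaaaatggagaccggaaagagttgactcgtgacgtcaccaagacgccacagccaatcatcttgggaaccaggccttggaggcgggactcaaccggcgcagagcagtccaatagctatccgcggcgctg
Mcm7: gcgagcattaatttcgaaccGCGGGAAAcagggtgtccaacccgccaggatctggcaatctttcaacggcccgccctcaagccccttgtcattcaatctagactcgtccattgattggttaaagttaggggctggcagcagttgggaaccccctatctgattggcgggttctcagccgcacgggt

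The capitals in Ect2 and in Bub1 hold 2 CCAAT boxes each, the last of them 50 and 37 bases before the start. Those in Mcm5 are 2 E2F matches that overlap on opposite strands. The 4 genes read as follows. Ect2 went from 73.1, 71.6 and 66.6 CPM to 18.97, 18.7 and 18.3 CPM, and Bub1 from 85.0, 79.3 and 72.2 CPM to 25.1, 24.6 and 24.7 CPM. Mcm5 went from 229, 247 and 272 CPM to 98.3, 69.3 and 77.3 CPM and Mcm7 from 214, 217 and 233 CPM to 111, 95.8 and 105 CPM. The stages did not overlap for any of the 4, which were chosen among called falls with small p, nor for 67.7% of all tested genes. The log2 fold changes were -1.92, -1.67, -1.61 and -1.09.

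Genes that build ribosomes and proteins fell with the division genes. Ribosome biogenesis genes fell in 33 of 37 members in both fits and none rose, with a median of -0.74. Nop56, of the small nucleolar particles that modify ribosomal RNA, read 397, 400 and 402 CPM before and 161, 136 and 149 CPM after, and Utp20 (-1.69), Heatr1 (-1.48) and dyskerin, Dkc1 (-1.14), fell. The cytosolic tRNA synthetases fell in 15 of 20 (in the repeat 2 rose), with a median of -0.41, while their mitochondrial counterparts rose in 10 of 17 (12 in the repeat), with a median of 0.53, and only Yars2 fell (-0.19), a call lost in the repeat (-0.17) and without undifferentiated 3 (-0.15) or any 1 differentiated library (-0.17, -0.16 and -0.17). It was also lost with DESeq2 (-0.18), in the fit of the 6 control libraries alone (-0.18) and without the low-count filter (-0.17). Tars fell by 0.75 and Vars by 0.82, and Lars2 rose by 0.79 and Fars2 by 0.86. Within 1 enzyme activity, the leucine enzyme Lars of the cytosol fell by 0.81 and that of mitochondria rose. Splicing SR and hnRNP proteins fell in 25 of 30 (27 in the repeat), among them Srsf3 (-0.98), Srsf2 (-0.97) and Hnrnpa1 (-0.86), and Srsf5 alone rose, by 0.59. Nucleotide synthesis genes fell in 24 of 32 and rose in 6 in both fits. Ribonucleotide reductase subunits Rrm1 (-1.16) and Rrm2 (-0.92) fell, and Ctps2 (1.25), Impdh1 (1.27) and Hprt (1.17), the purine salvage enzyme, rose.

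The structural proteins of cytosolic ribosomes gave no direction that held. Of 77 tested, 7 rose and 13 fell as labelled, 23 rose and 13 fell in the repeat, and scaling by library totals gave 4 and 27. The library labelled differentiated 1 was lower than both other differentiated libraries for 71 of the 77. Rps2 fell by 0.67 and Rpl12 by 0.59, and Rpl9 rose by 0.64. ER chaperones rose in 13 of 26 and fell in 6 (14 and 8 in the repeat), led by Dnajb9 (1.85), Xbp1 (1.65) and the oxidase Ero1l, which read 257, 234 and 201 CPM before and 627, 1952 and 1726 CPM after. Other heat shock genes, a list not limited to the cytosol, fell in 10 of 22 and rose in 3 (12 and 5 in the repeat). Hsph1 (-1.25) and Hspa4l (-1.51) fell, and the mitochondrial chaperonin Hspd1 rose by 0.77. Hspa9 rose by 0.33, a call lost under library totals (0.21) and in the fit of the 6 control libraries alone (0.33). It was also lost with replicate number as a block (0.33) and without differentiated 2 (0.27), differentiated 3 (0.26) or any 1 undifferentiated library (0.32, 0.34 and 0.31). Targets of ATF4 with serine synthesis rose in 7 and fell in 8 of 22, and in the repeat 11 rose and 8 fell. Shmt2 fell by 1.14 and Phgdh by 0.57, and Nupr1 rose by 1.84. Lysosomal hydrolases were 11 up and 12 down of 38, and 11 and 20 in the repeat, with cathepsin L, Ctsl, lower by 1.65 and the acid lipase Lipa higher by 0.87. As labelled, the counts of the ATF4 and lysosomal lists were near the 32.2% and 31.7% of all tested genes that rose and fell.

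Genes induced by interferon fell. Of 16 tested Ifi and Ifit genes 13 fell (14 in the repeat), with a median of -1.40, and Ifi27 rose by 0.79, from 146, 140 and 167 CPM to 263, 257 and 267 CPM. Ifi44 went from 34.1, 57.0 and 39.9 CPM to 6.84, 5.75 and 3.56 CPM. Ifit2 (-1.60), Ifi202b (-1.77) and Ifi35 (-1.19) fell. Of 12 guanylate-binding and immunity-related GTPases 6 fell and 2 rose, Irgq (0.75) and Gbp11 (1.90), with 7 and 2 in the repeat; Irgm1 fell from 66.6, 89.3 and 78.3 CPM to 16.7, 9.99 and 12.3 CPM. TRIM proteins fell in 23 of 39 and rose in 6 (23 and 7 in the repeat). Of 13 apolipoproteins 5 fell, all of the L group, among them Apol9b (-4.09) and Apol9a (-3.25), and 8 rose, among them Apol6 (0.88) of the same group, Apoe, from 2.08, 1.85 and 3.56 CPM to 41.9, 61.8 and 60.3 CPM, and Apoc1 (6.39). Of the 13, 4 had under 10 counts in every undifferentiated library and passed the low-count filter mainly through other libraries.

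Ifit1 and Ifit1bl2 are neighbours whose starts face away from each other, and their promoters overlap, so the same letters serve both. They are printed because the genes fell together; capitals mark the core of the interferon-stimulated response element, a pair of GAAA with 2 bases between them, or of TTTC on the other strand. It was found in 2.98% of all promoters and 2.68% of those of tested genes. Promoters were found for 12 of the 16 Ifi and Ifit genes, too few for a share. The windows are chr19:34640765-34640888 (plus strand) and chr19:34640744-34640833 (minus strand), and the genes were chosen after their values were seen.
Ifit1: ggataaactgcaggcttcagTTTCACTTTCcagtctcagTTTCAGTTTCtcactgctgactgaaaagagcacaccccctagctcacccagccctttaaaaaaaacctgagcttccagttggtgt
Ifit1bl2: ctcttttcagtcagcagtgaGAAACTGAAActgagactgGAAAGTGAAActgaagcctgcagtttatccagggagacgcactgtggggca

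Ifit1 read 70.2, 100.2 and 84.2 CPM before and 18.1, 8.06 and 8.69 CPM after differentiation, and Ifit1bl2 2.71, 4.05 and 3.44 CPM before and 0.746, 0.606 and 0.270 CPM after. Both fell, by 2.88 and 2.66. Strand of counting is not given, and reads of close Ifit copies may be shared between them.

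Chemokines fell in 9 of 16 tested and rose in 3, Ccl27a (0.90), Ccl6 (1.94) and Cxcl13, and in the repeat 2 of 15 rose and 10 fell. Cxcl13, with 0 counts before and 0.808, 0.182 and 0.0540 CPM after differentiation, was at least 5.80-fold higher than 3 counts over the group, and its call was lost without differentiated 1, its highest library (4.11). The call of Ccl6 was lost without differentiated 2 (1.66) or undifferentiated 3 (1.65). Ccl2, the monocyte attractant, went from 153, 148 and 154 CPM to 11.1, 5.27 and 4.43 CPM. Class I antigen presentation genes fell in 11 of 22 and rose in 3 (14 and 4 in the repeat), none of the rises 2-fold. H2-D1 read 614, 582 and 609 CPM before and 446, 319.8 and 339 CPM after, and the library labelled differentiated 1 lay above both other differentiated libraries for 18 of the 22 genes. In the interleukin 1 and 18 receptor family 2 of 12 rose and 3 fell in both fits, against 32.2% and 31.7% of all tested genes. Il1rap fell beside Il1rl1 and Il18rap, and Il1r1 (0.74) and Myd88 (0.23) rose; the call of Il1rap (-0.68) was lost without differentiated 2 (-0.60) or 3 (-0.49). Reads of H2 genes may be shared between near-identical copies.

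Signalling pathways that guide mesenchymal fate had members on both sides, as did all tested genes, of which 32.2% rose and 31.7% fell. Wnt pathway genes rose in 10 of 25 and fell in 8 (10 and 9 in the repeat). The co-receptor Lrp5 went from 85.1, 70.1 and 78.7 CPM to 424, 449 and 455 CPM, and Fzd4 (2.79) and Tcf7l1 (2.17) rose, while Fzd2 (-1.05), Fzd7 (-1.06) and Ctnnb1, β-catenin (-0.53), fell. TGF-β and BMP genes rose in 10 and fell in 19 of 43 (11 and 21 in the repeat). The 19 include all the Id genes given above and Bmp1 of the interstitial matrix list, so these are not separate observations. The BMP antagonist Grem1 fell from 312, 317 and 312 CPM to 17.3, 13.4 and 13.1 CPM, and another antagonist, Chrdl1, rose from 0.693, 0.899 and 0.816 CPM to 109, 59.2 and 52.4 CPM. Notch and Hedgehog genes were even at 7 and 7 of 20 in both fits, with Notch1 (1.58) and Jag1 (1.12) up and Rbpj (-1.24) and Gli1 (-1.33) down. Of 43 growth factors and receptors 16 rose and 19 fell (15 and 23 in the repeat). Vegfa rose by 1.71, Gas6, the ligand of Axl, by 1.88 and the growth hormone receptor Ghr by 1.28; Fgf7 (-2.77), Nrg1 (-2.50) and Bdnf (-2.32) fell.

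Prostaglandin synthesis genes split between 10 that rose and 8 that fell among the 18 tested, in both fits. The cyclooxygenases fell: Ptgs2 went from 56.0, 51.1 and 46.3 CPM to 1.62, 3.63 and 4.16 CPM, and Ptgs1 from 387, 343 and 351 CPM to 99.8, 97.2 and 91.0 CPM. Pla2g4a, which frees arachidonate, fell by 2.05. Pla2g16, the abundant phospholipase of fat, rose by 4.79, Cbr3 by 3.13 and Ptges by 1.45. Antioxidant and glutathione genes rose in 18 of 40 and fell in 10 (19 and 12 in the repeat). Catalase, Cat (1.74), Mgst1 (3.08) and Sod1 (1.31) rose, and Txnrd1 (-1.26), Gsto1 (-1.56) and Gpx1 (-0.98) fell.

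Iron, copper and zinc genes rose in 12 of 19 and fell in 3 (12 and 4 in the repeat). Aco1, the cytosolic aconitase that also senses iron, read 79.6, 81.6 and 80.6 CPM before and 347, 377 and 371 CPM after, and Mt2 (2.30) and Steap4 (6.37) rose. Aldehyde, polyol and retinoid genes rose in 15 of 31 and fell in 8 (15 and 10 in the repeat), with Aldh1a7 from 3.92, 6.01 and 5.07 CPM to 294, 381 and 379 CPM. Akr1c18 fell to 2 counts over the differentiated group, a ratio of 103 (28.1 to 853). Imprinted growth genes rose in 8 of 15 and fell in 2, Dlk1 (-0.43) and Plagl1 (-1.47), with 8 and 3 in the repeat. Peg10 went from 29.1, 26.0 and 28.4 CPM to 723, 1228 and 1234 CPM, Igf2 from 2.08, 1.01 and 1.92 CPM to 44.8, 80.7 and 80.3 CPM, and Mest rose by 3.80.

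Per length, the most abundant transcript of undifferentiated cells was that of the elongation factor Eef1a1 at a mean of 6820 FPKM, followed by the ribosomal protein Rplp1, the galectin Lgals1 and the ferritin light chain Ftl1. After differentiation Fabp4 was first, at 19326 FPKM from 59.1 FPKM, ahead of Eef1a1 at 5238 FPKM. Cidec went from rank 8221 to rank 19 and Aldoa from rank 111 to rank 7. Fabp5, another fatty acid carrier, went from 155 to 1608 FPKM, and the glycolytic enzymes Pgk1, Ldha and Pgam1 were also among the 10 largest gains in FPKM. The largest losses were of Lgals1, the actins Actg1 and Actb, Ptma, S100a6, vimentin (Vim) and ribosomal proteins. Among the last, the call of Rplp0 (-0.29) was lost with the 6 control libraries alone (-0.29) and with the replicate block (-0.30). It was also lost without differentiated 1 (-0.17), undifferentiated 2 (-0.31) or undifferentiated 3 (-0.25), and kept in the repeat (-0.17). Ftl1 was not called as labelled (-0.22) and fell in the repeat (-0.27). Eef1a1 did not pass the test (-0.26), so its lower FPKM is not a called change. Among genes of at least 100 CPM the steadiest were Sh3gl1, Ube2d3, Ctdnep1, Nedd4, Adrm1, Ppp2r5d, Mrfap1 and Hnrnpul2, none of which passed the test. Nedd4 read 1464, 1500 and 1440 CPM before and 1491, 1492 and 1436 CPM after.

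The library labelled differentiated 1 differed from the other differentiated controls by more than 2-fold in 435 of the 11960 genes, against 79 between those 2. Over all 12993 tested genes it lay below both in 5404 and above both in 5401. The lists were less even. It lay below both for 22 of 23 glycolysis genes, 18 of 22 ATF4 targets and 10 of 12 keratins. It lay above both for 33 of 38 lysosomal hydrolases, 9 of 12 complement genes and 8 of 11 matrix metalloproteinases. Gapdh read 959, 2004 and 1742 CPM in the differentiated libraries, and Mmp9, a gelatinase, 112 CPM in that library against 4.79 and 6.26 CPM in the others. The log2 fold change of Mmp9 was 2.01 and not called as labelled, and -0.84 and called in the repeat; both genes were picked after their values were seen.

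**Figure D5:**
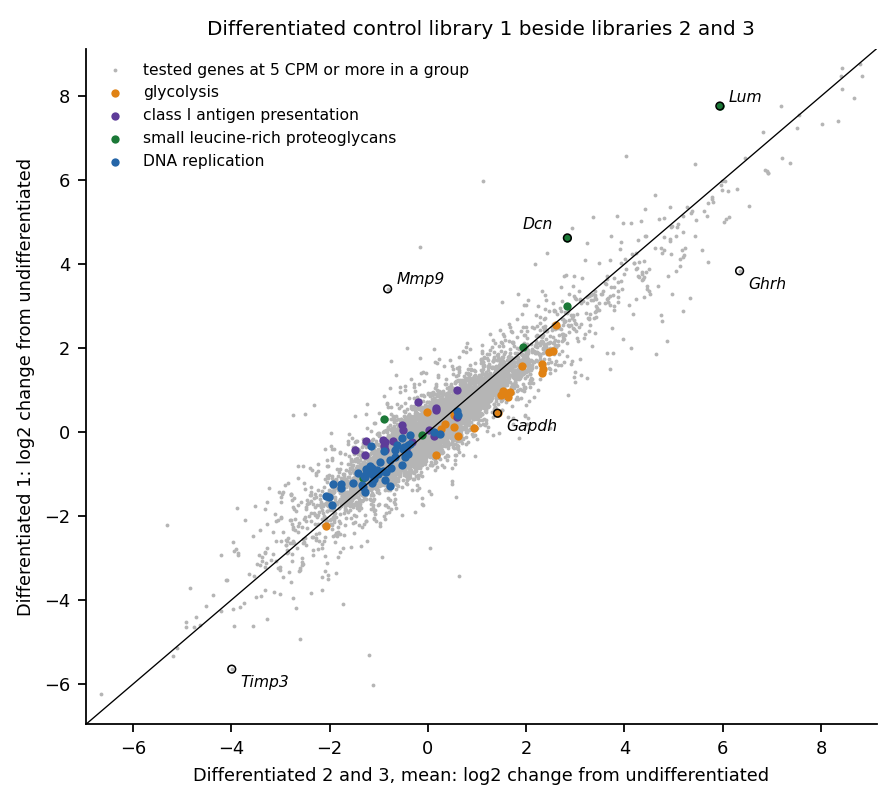
Log2 change from undifferentiated in the library labelled differentiated 1 (y axis) against the mean of differentiated 2 and 3 (x axis) for 10748 tested genes with at least 5 CPM in a group, 0.5 CPM added; the line marks equal change and coloured points are members of 4 lists. Most genes lie along the line, glycolysis genes lie below it, and class I genes and the proteoglycans Lum and Dcn lie above it.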

How the data were processed

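RNA sequencing was done on 12 libraries in groups of 3, and the 6 control libraries are described. The authors' deposited tables hold 2 units per gene, expected counts, which are estimated read counts and need not be whole, and FPKM, per the file headers; a gene missing from a table was counted as 0. The genome build named is mm8, per the submitters' processing notes. For the aligner, the counter and the strand setting nothing is given in these sources, so near-identical or antisense genes may share reads. The number of columns of per-sample values not used was 0. Rows without a symbol stayed in the tests and are not named.

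Expected counts were rounded, filtered with filterByExpr (minimum count 10), scaled by TMM and fitted with edgeR 4.0.16 in R 4.3.3 over all 12 libraries, which share 1 estimate of spread. The control stages were compared by the quasi-likelihood test, with Benjamini-Hochberg adjustment over all genes and a threshold of 0.05. CPM and ratios were computed from the TMM-scaled counts. FPKM were averaged and not tested. The fit was also run on simulated counts in which far fewer genes changed than here. That run cannot show how the scaling behaves when most genes change. Tables and promoters were handled in Python 3.11.15 with pandas 2.3.3, and exact 95% intervals of count ratios came from SciPy 1.17.1. Totals of 16334079 to 19686675 counts put 3 counts at 0.152 to 0.184 CPM.

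The comparison, the gene lists and the sets of forms were chosen with earlier results of these data known. The naming rule took the label and marker genes, the 16 largest rises and falls among called genes with at least 5 CPM, no overlap and the same call in the repeat, the 10 highest and 10 most changed in FPKM, the 8 steadiest of at least 100 CPM, and from each list up to 4 called genes per direction with the smallest p. It also took every form in a described set and the 1 member that moved against its list. Other genes were chosen after their values were seen. Alternatives were DESeq2 1.42.0, RLE factors, library totals, no low-count filter, a minimum count of 50, the 6 control libraries alone, leaving out each library, and a replicate block. Same-numbered libraries did not pair by the correlation of their deviations.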

Additional observations from a re-analysis of the deposited data

How the results depend on the processing

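As labelled 8307 genes were called. The count was 8390 with DESeq2, 8305 with RLE factors, 8356 with library totals (3522 up and 4834 down), 8278 without the low-count filter, 7707 with a minimum count of 50, 7791 in the fit of the 6 control libraries alone and 9292 in the repeat, each within 1.5 times of the main count. Leaving out 1 control library at a time gave 7581 to 8538 calls, 3823 to 4365 up and 3614 to 4173 down, with 1718 to 1874 rises and 1249 to 1461 falls of at least 2-fold. With the replicate number as a block 7931 genes were called; the deviations of same-numbered libraries correlated at 0.0972, 0.0531 and 0.0912, so the numbers were not taken to pair the samples. Of 780 named genes tested 749 were called, and 40 lost the call under at least 1 alternative, 7 of them under the repeat. Among these named genes the direction changed for 2. Tnfsf14 had a log2 fold change of 6.46 as labelled, -1.88 in the repeat, -1.87 without differentiated control 1 alone and 8.33 without undifferentiated control 2, whose 1 count was the only one of its group; its calls were lost in all of these. Gpt2 had -0.06 as labelled and 0.139 in the repeat. Outside the naming rule Mmp9 (2.01 and -0.84) and Pdgfra (0.62 and -0.07) also changed sign in the repeat. The larger number of calls changed side under library totals for Rab GTPases, adhesion and orphan receptors and SLC transporters outside the SLC25 group, and in the repeat for ATF4 targets, cytosolic ribosomal proteins and matrix metalloproteinases (4 up and 2 down as labelled, 4 and 5 in the repeat with members counted that were tested only there); the cause was not tested. Genes near 3 counts are limited by depth, and their fold changes depend on the prior count.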

Other observations

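Several gene families outside the groups above also moved. Keratins, the intermediate filaments of epithelia, rose in 10 of 12 tested members and fell in 2, Krt7 (-3.33) and Krt80 (-3.91), in both fits; 6 of the 12 had under 10 counts in every undifferentiated library. Krt19 read 0.519, 0.337 and 0.408 CPM before and 2.11, 11.2 and 12.0 CPM after differentiation, and Krt36 1 count before and 6.84, 9.99 and 11.4 CPM after. The library labelled differentiated 1 was the lowest differentiated library for both. Histone genes rose in 18 of 45 and fell in 6 (19 and 7 in the repeat), although replication genes fell. Hist1h2al, a core histone gene, read 5.95, 6.52 and 8.34 CPM before and 76.4, 70.9 and 84.3 CPM after. H2afz (-0.79) and H2afy (-0.72), variant histones, fell. Kinesins, the motors that walk on microtubules, fell in 18 of 31 and rose in 5 (17 and 9 in the repeat), with the mitotic motors Kif23 (-2.53), Kif20a (-2.04) and Kif11 (-1.66) lower and Kif13b (1.15) higher. Tubulins fell in 7 of 12 and none rose, in both fits.

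Guidance molecules, homeobox factors and channels are to be read against the 63.9% of all tested genes that were called. Sema3g, a secreted semaphorin, read 1.56, 1.29 and 1.57 CPM before and 32.5, 104 and 100 CPM after, and semaphorins and plexins rose in 10 of 23 and fell in 6 (11 and 10 in the repeat). Ephrins and their receptors rose in 2 of 14 and fell in 6 (8 in the repeat), with Epha2 from 78.8, 64.2 and 68.0 CPM to 9.20, 9.57 and 8.96 CPM. Serpins, mostly protease inhibitors, rose in 4 of 20 and fell in 10 (7 and 12 in the repeat), among them Serpina3n (5.80) up and Serpinb2 (-5.18) and Serpinb9b (-3.41) down. Hox genes, which keep the position of a cell along the body, rose in 7 of 18 and fell in 2, Hoxc13 (-2.06) and Hoxc9 (-1.80), with 10 and 4 in the repeat. Potassium channels rose in 3 of 18 and fell in 8 in both fits, and 6 of the 18 had under 10 counts in every differentiated library and passed the low-count filter mainly through other libraries. Kcnk3 rose by 4.28 and Kcnk2 fell by 2.49. Among water and glycerol channels Aqp7, the glycerol channel of fat cells, gave a ratio of 267 (95% counting interval 73.7 to 2214), and Aqp1 (-2.61) and Aqp5 (-4.07, and -5.21 in the repeat) fell.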
